A study of Homo sapiens with 12 samples.

Results

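The cluster of miR-424, miR-503, miR-542 and miR-450 is a group of miRNA hairpins on the human X chromosome, and 7 of its mature arms were followed here: hsa-miR-424-5p, hsa-miR-424-3p, hsa-miR-503-5p, hsa-miR-542-3p, hsa-miR-542-5p, hsa-miR-450a-5p and hsa-miR-450b-5p. These 7 arms were taken by name from a table of 1204 human mature miRNAs, and 6 of them passed the filter on low counts, all but hsa-miR-450a-5p. They were chosen by their levels, arm ratios and changes in these same libraries, so their values are given as a description, with no test of them. RNA was taken from MV4-11 and Molm-14 cells, lines derived from human acute myeloid leukemia (AML) that carry the FLT3 internal tandem duplication. In each line, cells in which CRISPR/Cas9 had deleted MPC1 (MPC1 KO) were set against cells carrying the nontargeting Empty Vector (EV). The deletion used a single guide RNA in a lentiviral construct with a GFP marker, so an MPC1 KO line stands for 1 guide. The 4 groups, MV4-11 EV, MV4-11 MPC1 KO, Molm-14 EV and Molm-14 MPC1 KO, held 3 libraries each. MPC1 is a subunit of the carrier that brings pyruvate into mitochondria. Small RNA sequencing does not read its mRNA, and the loss of MPC1 was not analysed here.

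A miRNA hairpin is cut by Drosha and Dicer into a duplex whose 5′ or 3′ arm is loaded into an Argonaute protein, and the bases near the 5′ end of the loaded arm, the seed, pair with target mRNAs. miRNAs in a cluster can be cut from a shared primary transcript, whereas the level of each mature arm also depends on processing, loading and decay. hsa-miR-424-5p has the seed of the miR-15/16 family, and hsa-miR-503-5p shares its bases 2 to 7. The family restrains cell cycle genes such as CCND1 and CCNE1, and miR-424 is known in myeloid cells for its rise during monocytic differentiation. miR-542-3p has been described as a regulator of BIRC5, which encodes survivin.

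All 6 hairpins lie on the minus strand of chromosome X in GRCh38, within 6527 bases from chrX:134540185-134546711. In the direction of transcription the order is MIR424, MIR503, MIR542, MIR450A2, MIR450A1 and MIR450B, and their 5′ ends lie 0, 313, 5274, 6104, 6280 and 6449 bases from that of MIR424. The MIR424 hairpin (chrX:134546614-134546711) overlaps an exon of the long noncoding RNA gene MIR503HG by up to 29 bases, and MIR503 (chrX:134546328-134546398) lies within that gene. MIR542 (chrX:134541341-134541437), MIR450A2 (chrX:134540508-134540607), MIR450A1 (chrX:134540341-134540431) and MIR450B (chrX:134540185-134540262) overlap no other gene in GENCODE 44.

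The mature sequences are shown because seed and similarity decide which relatives each arm can be compared with. Those of 6 of the 7 arms were matched by name in RefSeq (GRCh38.p14), and hsa-miR-542-3p is named only. The seed, bases 2 to 8 from the 5′ end, is in capitals.
hsa-miR-424-5p: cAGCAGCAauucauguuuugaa
hsa-miR-503-5p: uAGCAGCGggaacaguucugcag
hsa-miR-424-3p: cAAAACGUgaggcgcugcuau
hsa-miR-542-5p: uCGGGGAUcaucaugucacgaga
hsa-miR-450a-5p: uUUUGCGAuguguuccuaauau
hsa-miR-450b-5p: uUUUGCAAuauguuccugaaua
hsa-miR-424-5p and hsa-miR-503-5p have the same bases 2 to 7 and part at position 8 (A8G, counted from 1 at the 5′ end, hsa-miR-424-5p first). Those 6 bases, AGCAGC, stand at this position in 9 of 2370 human mature miRNAs in the sequence table (0.38%), most of them named members of the miR-15/16 family. hsa-miR-450a-5p and hsa-miR-450b-5p differ at 6 of 22 positions, one of them inside the seed (G7A, hsa-miR-450a-5p first), so they do not share a full seed. The sequence of hsa-miR-450a-5p matched the genome exactly in both MIR450A1 and MIR450A2, whereas each of the other 5 matched once.

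The authors deposited raw counts, with 3870104 to 8683456 reads counted on miRNAs per library and between 984 and 1057 miRNAs detected. Levels are given as CPM, the count relative to the library total after TMM scaling, whose factors were between 0.940 and 1.08. No pair of libraries within a group was alike to within counting noise (chi-square per degree of freedom 11.4 to 154). Whether the 3 libraries of each group were grown separately is not given in the labels, so the spread between them may be technical. The blood cell miRNAs hsa-miR-142-3p, hsa-miR-142-5p and hsa-miR-223-3p were all abundant, at 26972 to 35658 CPM summed in MV4-11 and 54952 to 66472 in Molm-14. Of 4 markers of liver, epithelium and endocrine cells, 3 were in the table and summed to 109 to 265 CPM, mostly hsa-miR-200c-3p, while hsa-miR-205-5p did not exceed 0.388 CPM in any library. In bulk libraries, a miRNA carried by fewer cells and one present at a lower level in each cell cannot be told apart.

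The cluster was a small part of either line and more abundant in Molm-14. Summed over the 7 arms, it held 0.110% ± 0.0169 of the MV4-11 EV counts and 0.209% ± 0.0138 of the Molm-14 EV counts (SD, n = 3 each). With MPC1 KO the shares were 0.145% ± 0.0109 and 0.226% ± 0.00400. Nearly all of this came from 5 arms, which were counted between 273 and 3627 times in every library. hsa-miR-542-5p, by contrast, had 6 to 20 counts per library, and hsa-miR-450a-5p had 0 to 3.

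hsa-miR-424-5p, the arm with the miR-15/16 seed, was the lowest of the 5. Its libraries were at 50.9, 63.4 and 65.3 CPM in MV4-11 EV and at 79.0, 82.3 and 69.7 in MV4-11 MPC1 KO. In Molm-14 they were at 197, 163 and 192 CPM in EV and at 199, 182 and 212 in MPC1 KO. The MV4-11 groups were separate from each other and from Molm-14, while the Molm-14 groups overlapped.

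hsa-miR-424-3p, the opposite arm of the same hairpin, was at 180, 183 and 217 CPM in MV4-11 EV and at 244, 267 and 222 in MV4-11 MPC1 KO. Molm-14 EV libraries were at 693, 477 and 502.9 CPM, and those of Molm-14 MPC1 KO at 519, 550 and 523. The first Molm-14 EV library stood well above the others of its group, and the Molm-14 MPC1 KO libraries all fell inside the range that it opened.

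hsa-miR-503-5p was at 250, 254 and 278 CPM in MV4-11 EV and at 326, 373 and 329 in MV4-11 MPC1 KO. In Molm-14 its libraries were close together, at 600, 610 and 576 CPM in EV and at 582, 560 and 598 in MPC1 KO. It was therefore separate between the MV4-11 groups and overlapped between the Molm-14 groups.

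hsa-miR-542-3p was at 139, 168 and 173 CPM in MV4-11 EV and at 186, 208 and 208 in MV4-11 MPC1 KO. In Molm-14 it was at 283, 256 and 313 CPM in EV and at 353, 406 and 350 in MPC1 KO. In both lines every MPC1 KO library was above every EV library.

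hsa-miR-450b-5p, from the last hairpin, was at 351, 446 and 440 CPM in MV4-11 EV and at 488, 518 and 495 in MV4-11 MPC1 KO. In Molm-14 it was at 572, 524 and 572 CPM in EV and at 629, 665 and 582 in MPC1 KO. Its groups were separate within each line too, and in Molm-14 the lowest MPC1 KO library was only just above the highest EV library. The plot of levels by library shows the 5 arms side by side.

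**Figure D1:**
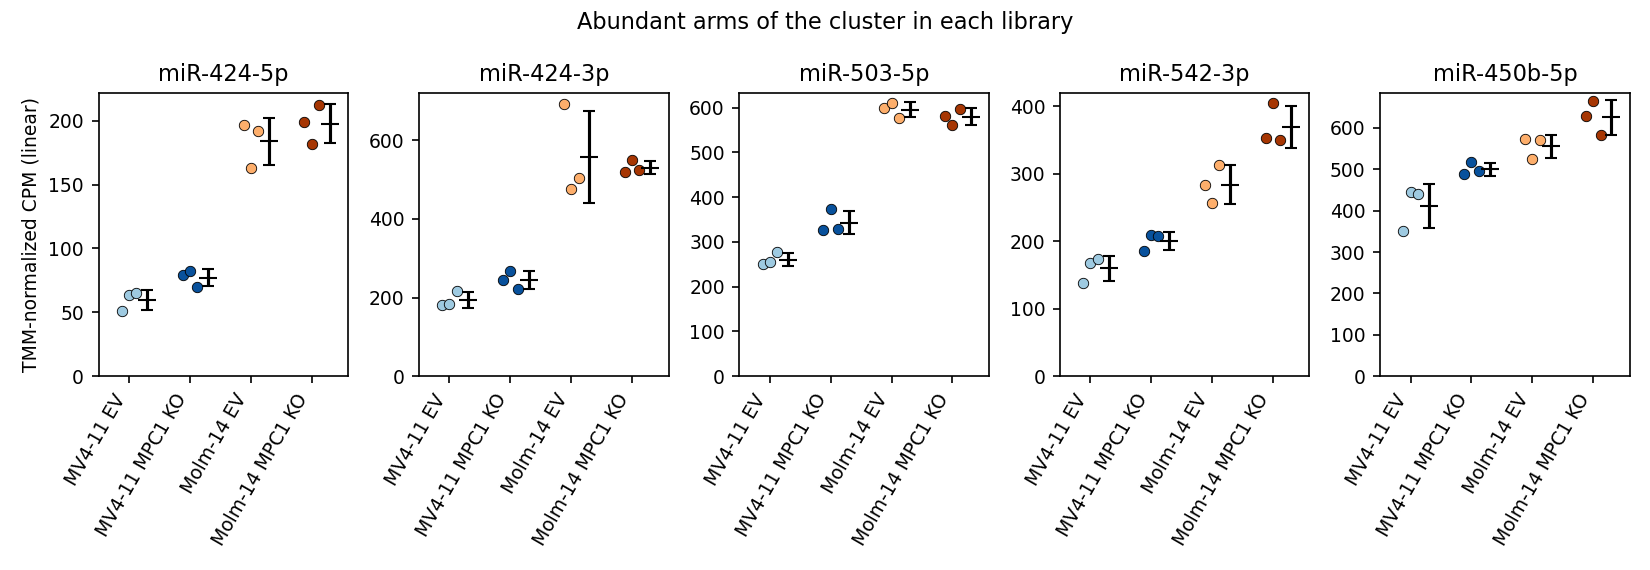
TMM-normalized CPM (linear axes from 0, each with its own scale) of the 5 abundant arms in the 12 libraries. Points are libraries, and the black mark and bar beside them are the group mean and SD (n = 3). All Molm-14 libraries lie above all MV4-11 EV libraries in every panel, and the fitted fold between the EV groups goes from 3.09 for miR-424-5p to 1.35 for miR-450b-5p.

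The order of the arms differed between the lines. In MV4-11 EV, hsa-miR-450b-5p was the highest (412 ± 53.2 CPM, SD, n = 3), followed by hsa-miR-503-5p (261 ± 15.2), hsa-miR-424-3p (193 ± 20.7), hsa-miR-542-3p (160 ± 18.6) and hsa-miR-424-5p (59.9 ± 7.86), with no overlap between neighbours. The MV4-11 MPC1 KO libraries had the same order, again without overlap. In Molm-14 EV, hsa-miR-503-5p (596 ± 17.5), hsa-miR-424-3p (557 ± 118) and hsa-miR-450b-5p (556 ± 27.8) led, and hsa-miR-424-3p overlapped both of the others. In Molm-14 MPC1 KO, hsa-miR-450b-5p (625 ± 41.7) and hsa-miR-503-5p (580 ± 18.7) overlapped at the top. As a share of the cluster's counts, hsa-miR-450b-5p made up 37.8% ± 1.95 in MV4-11 EV and 25.5% ± 1.07 in Molm-14 EV. Small RNA libraries capture different sequences with different efficiency, so the order of levels is that of reads and may not be that of molecules.

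The difference between the control lines became smaller along the cluster. Against MV4-11 EV, Molm-14 EV was higher by a log2 fold change of 1.63 (standard error, SE, 0.12) for hsa-miR-424-5p and 1.53 (SE 0.12) for hsa-miR-424-3p. The value was 1.19 (SE 0.09) for hsa-miR-503-5p, 0.83 (SE 0.11) for hsa-miR-542-3p and 0.43 (SE 0.10) for hsa-miR-450b-5p. This is a fold of 3.09 at the first hairpin and 1.35 at the last, and the order of the 5 values follows the order of the hairpins. hsa-miR-542-5p was at 0.71 (SE 0.40), from few counts. In this comparison 5 of the 6 members passed the threshold of an adjusted p under 0.05, against 61.9% of all 659 miRNAs tested, and all 6 had every Molm-14 EV library above every MV4-11 EV library, against 34.9% of all. The lines differed so widely that these counts say little of the cluster, and nothing was read from them. The median log2 fold change was 1.01 over the 6 members and 0.06 over all miRNAs tested.

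The arms of the cluster that were not among the 7 were not named by the choice and were tested. They come from the hairpins of members, and were listed with earlier results of these data known. Their p-values are thus not independent of the choice. hsa-miR-503-3p, the minor arm of MIR503, did not keep to that order: it had 3 to 18 counts per library in MV4-11 EV and 30 to 39 in Molm-14 EV, and rose in Molm-14 EV by a log2 fold change of 2.12 (SE 0.37, adjusted p = 2.51e-05, edgeR's quasi-likelihood test). hsa-miR-450a-1-3p (0.58, SE 0.31, adjusted p = 0.114) and hsa-miR-450a-2-3p (0.30, SE 0.23, adjusted p = 0.277), near the far end, did not pass, although the former did without the second MV4-11 EV library or the second Molm-14 EV library (0.81 in each case). hsa-miR-450b-3p was not analysed here. The plot of the difference against distance sets these 3 arms beside the members.

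**Figure D2:**
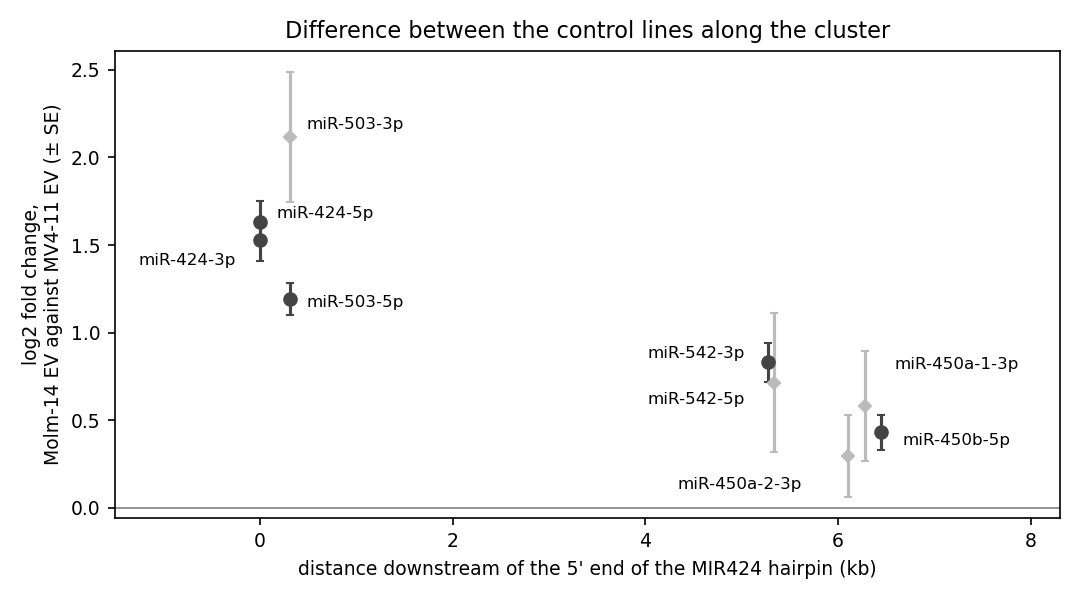
Log2 fold change of Molm-14 EV against MV4-11 EV (bars, standard error) by the distance of each hairpin from the 5′ end of MIR424 in kb. Dark circles are the 5 abundant arms, which fall from 1.63 to 0.43 from left to right, and grey diamonds are arms with few counts (miR-542-5p is drawn slightly to the right of miR-542-3p to show both), among which miR-503-3p lies above all others at 2.12.

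In MV4-11, the 5 abundant arms were slightly higher in every MPC1 KO library than in every EV library, and 1 of them passed the threshold. The log2 fold change of MPC1 KO against EV was 0.37 (SE 0.12) for hsa-miR-424-5p, 0.34 (SE 0.12) for hsa-miR-424-3p and 0.40 (SE 0.09) for hsa-miR-503-5p. It was 0.33 (SE 0.11) for hsa-miR-542-3p, 0.32 (SE 0.40) for hsa-miR-542-5p and 0.28 (SE 0.10) for hsa-miR-450b-5p, so the folds were between 1.21 and 1.32. Separate groups were thus seen for 5 of the 6 members, all but hsa-miR-542-5p, against 10.3% of all miRNAs tested with every MPC1 KO library above every EV library. Only hsa-miR-503-5p passed the threshold, against 3.03% of all. The median was 0.33 over the 6 members and -0.00351 over all miRNAs tested. These counts are given as a description, since the members were selected on this comparison. hsa-miR-503-5p no longer passed with upper-quartile scaling (0.29) or in a fit of the MV4-11 libraries alone (0.36). It did not pass without the first MV4-11 EV library (0.36), the second MV4-11 EV library (0.37) or the second MV4-11 MPC1 KO library (0.32), whereas 5 members passed without the second Molm-14 EV library and 4 without the third.

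In Molm-14 the abundant members were split between the ends of the cluster. The low-count arms hsa-miR-450a-2-3p and hsa-miR-450a-1-3p, given below, lie between MIR542 and MIR450B and were near 0 beside their errors. hsa-miR-542-3p was higher in MPC1 KO by 0.38 (SE 0.11) and hsa-miR-450b-5p by 0.17 (SE 0.10). At the other end, hsa-miR-424-5p (0.10, SE 0.12), hsa-miR-424-3p (-0.07, SE 0.12) and hsa-miR-503-5p (-0.04, SE 0.09) were all within about 1 standard error of 0. hsa-miR-542-5p was at 0.48 (SE 0.35). The sign for hsa-miR-503-5p turned with upper-quartile scaling (0.03), and that for hsa-miR-424-3p turned without the first Molm-14 EV library (0.13). Only hsa-miR-542-3p passed the threshold, against 6.83% of all miRNAs tested, and it did not pass without the first (0.39) or second (0.34) EV library or without the first (0.43) or second (0.32) MPC1 KO library. Every MPC1 KO library was above every EV library for 2 of the 6 members, hsa-miR-542-3p and hsa-miR-450b-5p, against 12.3% of all. The median was 0.14 over the 6 members and -0.01 over all.

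The effect in Molm-14 minus that in MV4-11 was -0.43 (SE 0.13) for hsa-miR-503-5p and -0.41 (SE 0.17) for hsa-miR-424-3p. It was -0.27 (SE 0.17) for hsa-miR-424-5p, -0.11 (SE 0.14) for hsa-miR-450b-5p, 0.05 (SE 0.16) for hsa-miR-542-3p and 0.16 (SE 0.54) for hsa-miR-542-5p. Among the members, the differences were thus negative for the arms of MIR424 and MIR503 and near 0 beside their errors for those of MIR542 and MIR450B. hsa-miR-503-5p was the only member past the threshold for this difference, against 6.68% of all miRNAs tested, and it did not pass with other scalings of the libraries.

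**Figure D3:**
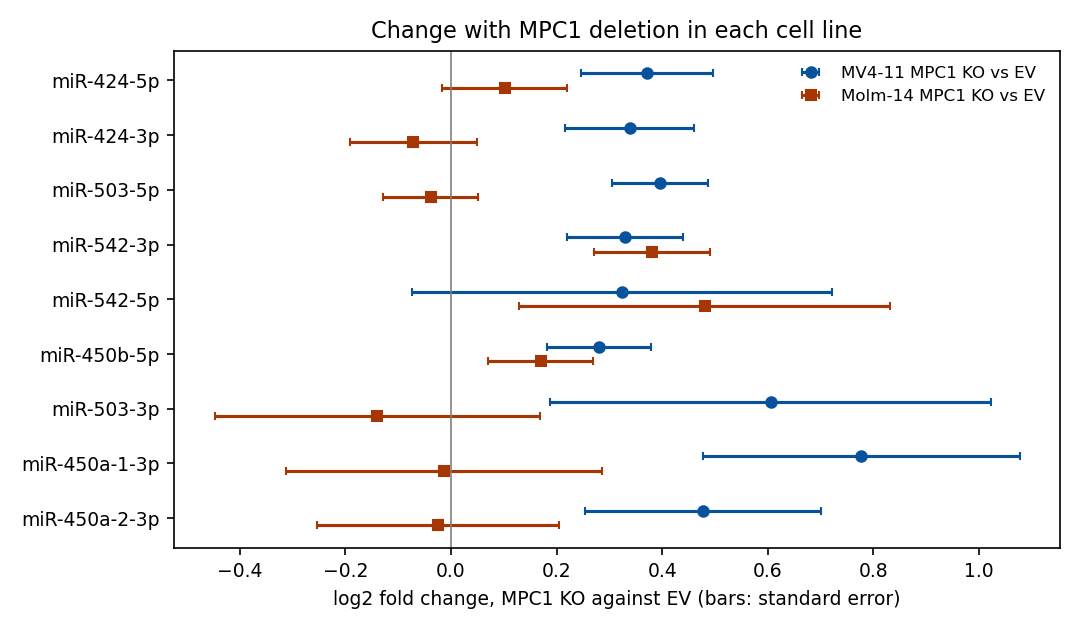
Log2 fold change of MPC1 KO against EV (bars, standard error) in MV4-11 (circles) and Molm-14 (squares) for the 6 members that passed the filter and the 3 other arms. All MV4-11 values lie right of 0, between 0.28 and 0.78, whereas in Molm-14 the 2 arms of MIR542 and miR-450b-5p lie right of 0 by more than their standard error.

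The minor arms moved by similar or larger amounts in MV4-11, from few counts and without passing the test. In MV4-11 MPC1 KO, hsa-miR-450a-1-3p was at a log2 fold change of 0.78 (SE 0.30, adjusted p = 0.176), with 14 to 26 counts per EV library and 36 to 38 per MPC1 KO library. hsa-miR-503-3p (0.61, SE 0.42, adjusted p = 0.584) and hsa-miR-450a-2-3p (0.48, SE 0.22, adjusted p = 0.337) had the same sign. In Molm-14 the 3 arms were at -0.01 (SE 0.30), -0.14 (SE 0.31) and -0.02 (SE 0.23), with adjusted p of 0.997, 0.877 and 0.974. None of the 3 passed for the difference between the lines, at -0.79 (SE 0.42), -0.75 (SE 0.52) and -0.50 (SE 0.32). Their adjusted p was 0.325, 0.471 and 0.428 by edgeR. In Molm-14 the rise of hsa-miR-542-3p and hsa-miR-450b-5p was thus not seen in the arms of MIR450A1 and MIR450A2, from hairpins near theirs. The standard errors of the latter were wide, and no test compared the arms with each other. In MV4-11 all of these arms had the same sign. Before adjustment, edgeR gave hsa-miR-450a-1-3p and hsa-miR-450a-2-3p a p under 0.05 in MV4-11, and DESeq2 and limma-voom called neither of them nor hsa-miR-503-3p with MPC1 deletion.

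hsa-miR-424-3p had more counts than hsa-miR-424-5p in every library, by 2.88 to 3.54 times in MV4-11 EV and 3.09 to 3.24 times with MPC1 KO. In Molm-14 the ratio was 2.62 to 3.52 in EV and 2.46 to 3.03 with MPC1 KO. The mean share of hsa-miR-424-3p among both arms was 76.4% ± 1.94, 76.0% ± 0.432, 74.9% ± 2.80 and 72.9% ± 2.08 in the same order (SD, n = 3 each), and these groups overlapped within each line. In the first MV4-11 EV library, for example, the share was 78.0%, with an exact 95% Clopper-Pearson interval of 76.1 to 79.8%, which covers counting error only. By reads, the more abundant arm of this hairpin is therefore not the one with the miR-15/16 seed. Capture can differ between the 2 sequences, so this may not hold for molecules.

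MIR542 and MIR503 were one-sided. hsa-miR-542-3p held 99.1% ± 0.133 of the counts of its hairpin in MV4-11 EV, and the 4 group means were between 99.1% and 99.2%. Its ratio to hsa-miR-542-5p was between 87.9 and 156 over the 12 libraries, with 6 to 20 counts of the minor arm. hsa-miR-503-5p held 99.4% ± 0.323 of its hairpin in MV4-11 EV and 98.7% ± 0.353 in Molm-14 EV. Its ratio to hsa-miR-503-3p was 114 to 374 in MV4-11 EV and 58.7 to 100.2 in Molm-14 EV, without overlap, from 3 to 39 counts of the minor arm. With MPC1 KO the lines overlapped, at 112 to 139 in MV4-11 and 62.2 to 133 in Molm-14. By reads, MIR503 thus gave mainly its 5′ arm and MIR542 mainly its 3′ arm in both lines and genotypes.

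Ratios between hairpins are taken within a library, so the scaling of the libraries does not enter them. hsa-miR-503-5p had 4.39 ± 0.464 times the counts of hsa-miR-424-5p in MV4-11 EV and 4.46 ± 0.302 times in MPC1 KO. In Molm-14 the ratio was 3.26 ± 0.417 and 2.94 ± 0.137, with no overlap between the lines. hsa-miR-450b-5p stood at 1.58 ± 0.173 of hsa-miR-503-5p in MV4-11 EV and at 0.935 ± 0.0691 in Molm-14 EV, with no overlap between the lines. In Molm-14, the ratio of hsa-miR-542-3p to hsa-miR-503-5p was 0.471, 0.419 and 0.543 in EV and 0.606, 0.724 and 0.587 in MPC1 KO. These Molm-14 groups did not overlap, at 0.478 ± 0.0622 and 0.639 ± 0.0742, whereas the MV4-11 groups did, at 0.613 ± 0.0535 and 0.586 ± 0.0388. The ratio of hsa-miR-450b-5p to hsa-miR-542-3p was likewise lower in Molm-14 MPC1 KO (1.64 to 1.78) than in Molm-14 EV (1.83 to 2.05), and overlapped in MV4-11 (2.38 to 2.63 against 2.53 to 2.65). The ratios of hsa-miR-542-3p with hsa-miR-503-5p and hsa-miR-450b-5p therefore separated the genotypes in Molm-14 and overlapped in MV4-11. The ratio of hsa-miR-450a-2-3p to hsa-miR-450a-1-3p, from few counts, separated them in MV4-11 instead. It was at least 1.87 in every MV4-11 EV library, at most 1.75 in every MV4-11 MPC1 KO library, and overlapped in Molm-14. The members were chosen with their ratios known, and how many pairs of other miRNAs separate in this way was not counted.

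**Figure D4:**
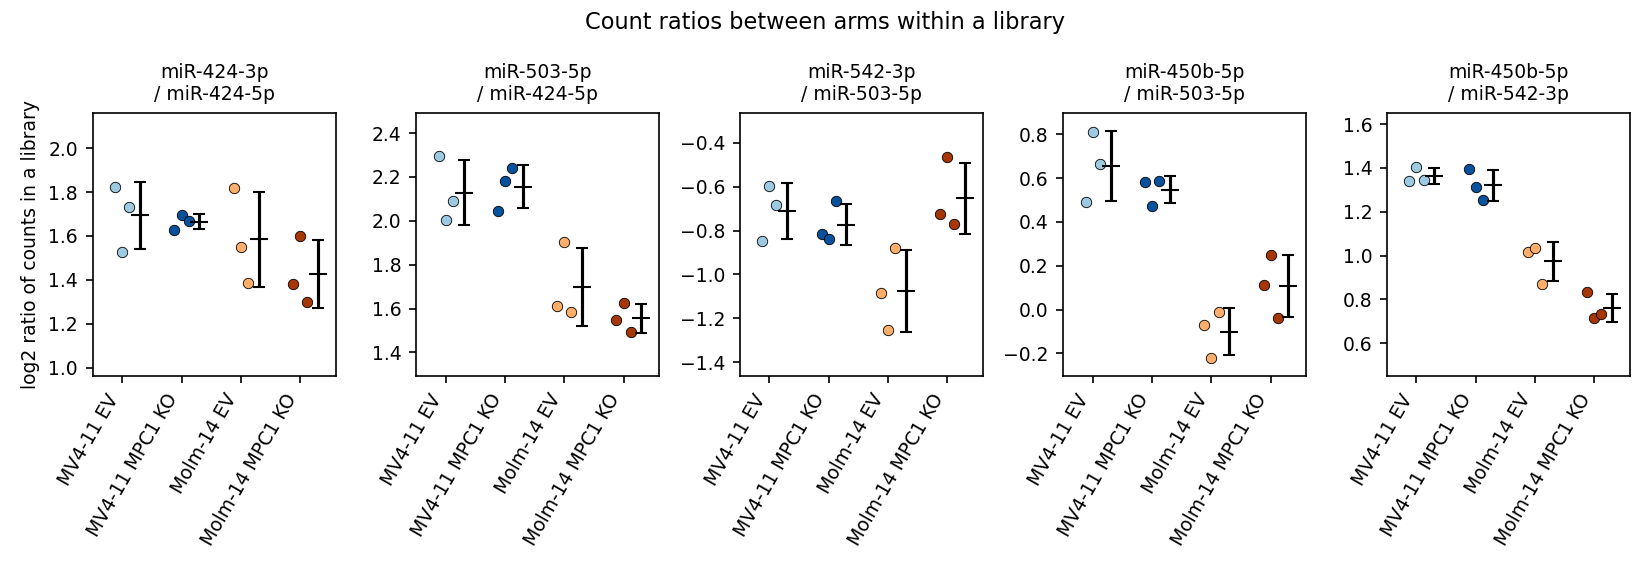
Log2 ratio of the counts of a pair of arms within each library (axes of equal height, not starting at 0). Points are libraries, and the black mark and bar are the group mean and SD (n = 3). The ratio of miR-542-3p to miR-503-5p is the one whose Molm-14 genotypes separate with MPC1 KO above EV. The ratios with miR-450b-5p and that of miR-503-5p to miR-424-5p separate the lines.

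Across all 12 libraries the 5 abundant arms varied together. Pearson's r of log2 CPM between them was between 0.853 and 0.981 over the 10 pairs, with a median of 0.931. The points share libraries, depth and scaling, and they fall into 2 lines that differ in level, so r over all libraries includes the difference between the lines. With the group means removed, r was between 0.122 and 0.865, with a median of 0.440. The highest was that of hsa-miR-542-3p with hsa-miR-450b-5p (0.865), from hairpins near each other, and the lowest that of hsa-miR-503-5p with hsa-miR-542-3p (0.122). Both arms of MIR424, cut from 1 hairpin, were at 0.568. hsa-miR-424-5p and hsa-miR-450b-5p, at opposite ends of the cluster, were at 0.583, above hsa-miR-503-5p with hsa-miR-424-5p (0.481) or hsa-miR-424-3p (0.439), so r did not follow the distance between hairpins. These are descriptions over 12 libraries, and no test was made.

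**Figure D5:**
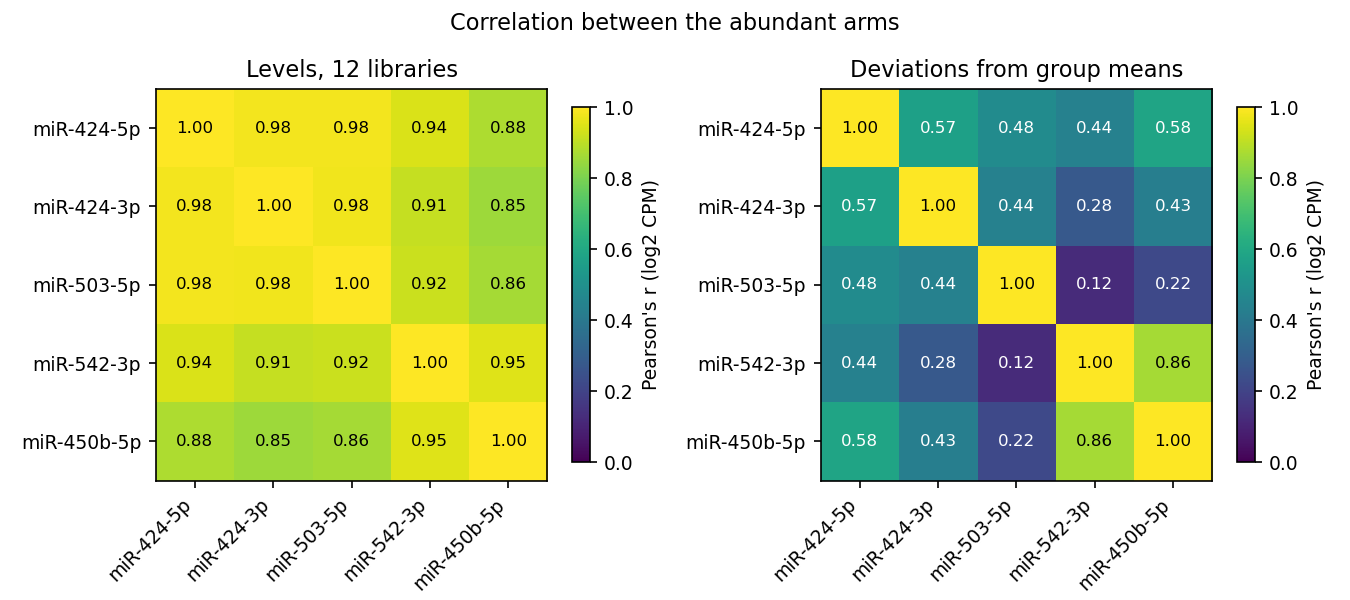
Pearson's r of log2 CPM between the 5 abundant arms over 12 libraries, for levels (left) and for deviations from the group means (right). Levels lie between 0.853 and 0.981, and deviations between 0.122 and 0.865, with miR-542-3p and miR-450b-5p the closest pair.

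hsa-miR-450a-5p had 0, 0 and 1 counts in MV4-11 EV and 0, 3 and 2 in MV4-11 MPC1 KO. In Molm-14 it had 2, 1 and 2 counts in EV and 3, 3 and 2 in MPC1 KO. All 12 values are at or under a floor of 3 counts, so no fold is given. The 3′ arms of the same hairpins were counted more often, at 14 to 42 for hsa-miR-450a-1-3p and 30 to 63 for hsa-miR-450a-2-3p. These 3′ arms differ at 3 of 22 positions (A7G, G19U and U20C, hsa-miR-450a-1-3p first) and each matched the genome once, unlike hsa-miR-450a-5p with its pair of loci. hsa-miR-16-5p, which also matched at 2 loci, had 53 to 182 counts per library, below hsa-miR-16-1-3p (317 to 1173) and hsa-miR-16-2-3p (6232 to 16779) from its hairpins. How reads that match several loci were counted is not given in the sources used here. Over the whole table, a median of at least 1000 counts was reached by 10.5% of 38 miRNAs with at least 2 loci and by 11.0% of 1030 with 1 locus. These shares take no account of how abundant each miRNA is in the cells. The part of such reads in the low count of hsa-miR-450a-5p was not tested.

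Among the relatives with the seed of hsa-miR-424-5p, hsa-miR-15b-5p and hsa-miR-15a-5p were the highest by reads counted, at 858 ± 70.1 and 268 ± 18.4 CPM in MV4-11 EV (SD, n = 3). Of the 9 human miRNAs with the same bases 2 to 7, 8 were in the table, and the share below covers 7 of them. Over these 7 arms, hsa-miR-424-5p and hsa-miR-503-5p together held 21.8% ± 0.989 of the counts in MV4-11 EV and 27.4% ± 1.12 with MPC1 KO. In Molm-14 the share was 39.3% ± 1.83 in EV and 35.8% ± 0.157 in MPC1 KO. The groups were separate in both lines, with MPC1 KO higher in MV4-11 (26.2 to 28.4% against 20.7 to 22.6%) and lower in Molm-14 (35.6 to 35.9% against 37.5 to 41.2%). In Molm-14 neither hsa-miR-424-5p (0.10) nor hsa-miR-503-5p (-0.04) was lower by more than its standard error, and hsa-miR-15b-5p, in the denominator, was at 847 ± 98.6 CPM in EV and 995 ± 33.4 in MPC1 KO. The low counts of hsa-miR-16-5p enter these shares, which were 22.0%, 27.6%, 39.9% and 36.4% without it. Leaving it out does not show what the shares would be if its reads, which match at 2 loci, were undercounted. Whether they were was not tested.

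Of the 5 relatives, only hsa-miR-497-5p passed the test with MPC1 deletion. In Molm-14 it was at 13.4, 14.7 and 17.8 CPM in EV and at 26.1, 27.1 and 29.8 in MPC1 KO, a log2 fold change of 0.86 (SE 0.19, adjusted p = 0.00364). In MV4-11 it was at 0.53 (SE 0.27, adjusted p = 0.403), and the difference between the lines was 0.32 (SE 0.34, adjusted p = 0.665). hsa-miR-195-5p, from the same locus on chromosome 17, was at 0.39 (SE 0.21, adjusted p = 0.323) in Molm-14 and 0.48 (SE 0.25, adjusted p = 0.413) in MV4-11. hsa-miR-15b-5p was at 0.23 (SE 0.10, adjusted p = 0.166) in Molm-14, and at 0.34 (adjusted p = 0.0470) without the first Molm-14 EV library. Between the EV controls, hsa-miR-497-5p (2.38, SE 0.24, adjusted p = 4.71e-09), hsa-miR-195-5p (1.58, SE 0.24, adjusted p = 3.63e-06) and hsa-miR-16-5p (0.94, SE 0.18, adjusted p = 9.50e-05) were higher in Molm-14. hsa-miR-15a-5p (0.18, SE 0.10, adjusted p = 0.114) and hsa-miR-15b-5p (-0.02, SE 0.10, adjusted p = 0.877) did not pass, although hsa-miR-15a-5p did without the second Molm-14 EV library (0.27, adjusted p = 0.0276).

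The listed arms of the miR-106a-363 cluster, the other large miRNA cluster of this part of chromosome X, were weakly counted. Its miR-19b-2 and miR-92a-2 arms share mature sequences with another cluster and were left out, so the level of the whole cluster was not measured. Of its 8 listed arms 4 had a count and 3 passed the filter, and none passed the test with MPC1 deletion in either line by edgeR, at an unadjusted p above 0.05 for each, nor by DESeq2 or limma-voom. All 3 were higher in Molm-14 EV than in MV4-11 EV, with log2 fold changes of 3.76 (SE 0.34, adjusted p = 7.89e-10) for hsa-miR-363-3p, 1.27 (SE 0.21, adjusted p = 1.22e-05) for hsa-miR-106a-5p and 0.74 (SE 0.17, adjusted p = 0.000729) for hsa-miR-20b-5p.

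Among 653 other miRNAs, those whose log2 CPM followed the mean of the 6 members most closely over the 12 libraries were hsa-miR-497-5p (Pearson's r 0.975), hsa-miR-96-5p (0.972), hsa-miR-455-3p (0.969), hsa-let-7b-3p (0.969) and hsa-let-7b-5p (0.968). Each was higher in Molm-14 than in MV4-11, for example hsa-let-7b-5p with a mean of 1629 CPM in MV4-11 EV and 10663 in Molm-14 EV. Of these 5, 0 were kept when the group means were removed. The mean gives hsa-miR-542-5p, with few counts, the same weight as the other members. With the group means removed, its r with each of them was negative, between -0.355 and -0.116.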

How the data were processed

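Small RNA libraries (NEBNext small RNA preparation) of MV4-11 and Molm-14 cells were analysed, 3 per group. The authors deposited raw counts per mature miRNA, without normalization. The submitters' processing notes name STAR 2.5.2, featureCounts 1.5.1 and GRCh38. Libraries were grouped by the sample labels.

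From these counts, edgeR 4.0.16 (R 4.3.3) was run with filterByExpr (minimum count 10; 659 of 1204 miRNAs, at least 99.97% of counts), TMM scaling and a robust quasi-likelihood fit of 4 group means. Benjamini-Hochberg adjustment ran over all 659 miRNAs, with a threshold of 0.05. The fit was tested on simulated data. Log2 CPM used a prior count of 2. Alternatives were DESeq2 1.42.0, limma-voom (limma 3.58.1), other scalings, filters and thresholds, a replicate block, and leaving out each library. Annotation came from GENCODE 44.

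The 7 arms and all lists were chosen with earlier results of these data known. Named were the members, the other arms, 5 seed relatives, arms of the neighbouring cluster with the highest mean CPM, and the 5 miRNAs with the highest Pearson's r to the members' mean.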

Additional observations from a re-analysis of the deposited data

Results flagged for a closer look

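The effect of MPC1 deletion on hsa-miR-503-5p differed between the lines, by -0.43 on the log2 scale (SE 0.13, Molm-14 minus MV4-11). It is shown here because the test of the difference itself, an interaction contrast in edgeR's fit over 659 miRNAs, placed it among 44 miRNAs past the threshold. The arm was one of those selected on these libraries, so the call is a description. In MV4-11 every MPC1 KO library was above every EV library (326 to 373 against 250 to 278 CPM), and in Molm-14 the genotypes overlapped (560 to 598 against 576 to 610 CPM). The difference kept its sign in 8 other fits (-0.48 to -0.25) and with each of 12 libraries left out (-0.52 to -0.35), and passed the threshold in 2 of the former and 2 of the latter. No explanation of it was tested.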

How the results depend on the processing

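The limits are set by 3 libraries per group, by low counts of the minor arms and by scaling. With upper-quartile scaling the median log2 fold change of all miRNAs moved to -0.12 in MV4-11, 0.18 for the difference between the lines and -0.12 between the EV controls, and 10 of 25 calls in MV4-11, 30 of 53 in Molm-14 and 31 of 44 for the difference were higher, against 13 of 20, 18 of 45 and 16 of 44 with TMM. With total counts 20 of 26 calls in MV4-11 were higher. The number of members called in MV4-11 was 0 with upper-quartile scaling and with the libraries of the comparison only, and 0 to 5 with a library left out. In Molm-14 it was 0 to 1 with a library left out, and between the EV controls it was 5 throughout. For the difference between the lines it was 0 with RLE, upper-quartile or total-count scaling, no filter, a mean of at least 10 counts or DESeq2, and 0 to 1 with a library left out. The cause was not tested. The replicate number as a block gave 1, 1, 1 and 5 members called, the same as without it, and 22, 49, 42 and 406 calls over all miRNAs against 20, 45, 44 and 408. Libraries sharing a number did not deviate together (r between -0.127 and 0.116, and 5 of 12 correlated best with their own number), so the numbers were not taken as pairs. Values near 0 changed sign. With upper-quartile scaling these were hsa-miR-503-5p (0.035), hsa-miR-450a-1-3p (0.059) and hsa-miR-450a-2-3p (0.048) in Molm-14, and hsa-miR-450b-5p (0.068), hsa-miR-195-5p (0.096) and hsa-miR-363-3p (0.15) for the difference. With total counts they were hsa-miR-15b-5p in MV4-11 (0.046), hsa-miR-450a-1-3p (0.020) and hsa-miR-450a-2-3p (0.005) in Molm-14. hsa-miR-450a-1-3p in Molm-14 was at 0.0033 with no filter and 0.0075 with DESeq2, and hsa-miR-363-3p at 0.017 for the difference with DESeq2. With a library left out, sign changes gave ranges in Molm-14 of -0.056 to 0.0098 (hsa-miR-503-5p), -0.14 to 0.13 (hsa-miR-424-3p), -0.27 to 0.30 (hsa-miR-450a-1-3p), -0.17 to 0.13 (hsa-miR-450a-2-3p) and -0.39 to 0.15 (hsa-miR-503-3p). In MV4-11 they were -0.26 to 0.0035 (hsa-miR-106a-5p), -0.094 to 0.051 (hsa-miR-15b-5p) and -0.61 to 0.17 (hsa-miR-363-3p), and between the EV controls -0.16 to 0.068 (hsa-miR-15b-5p). For the difference they were -0.19 to 0.022 (hsa-miR-450b-5p), -0.057 to 0.17 (hsa-miR-542-3p), -0.0071 to 0.34 (hsa-miR-542-5p), -0.36 to 0.086 (hsa-miR-195-5p) and -0.31 to 0.48 (hsa-miR-363-3p). Arm ratios moved by less than their SD in every alternative. Leaving out 1 of 3 libraries cannot move a mean by a full SD, so this says little of their stability. The seed family share in Molm-14 MPC1 KO was 36.4% without hsa-miR-16-5p. Of the 5 miRNAs most like the cluster, 2 were kept with Spearman's rho and 0 with deviations from the group means. The comparison of the lines' effects has no version with its own libraries only, since it needs all 12.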
